A study of Mus musculus with 8 samples.

Results

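The comparison was between the skin of wildtype mice on the day of birth (postnatal day 0) and on postnatal day 16, with 1 RNA sequencing library at each age. It holds every protein-coding gene with at least 1 FPKM (fragments counted on a gene, divided by its transcript length and by the library's size) in either library, which is 13665 genes of 55418 in the tables, of which 21976 are protein-coding. Just inside that limit was Mt3, at 1.0020 and 0.9463 FPKM, and just outside it was Tekt2, at 0.6844 and 0.9967 FPKM. The series has 8 libraries of total RNA from skin, 1 for each of 2 genotypes at days 0, 16, 19 and 28. Besides the wildtype there is a line called Hairloss, which carries a spontaneous mutation, and its libraries of day 0 and day 16 are used here as a second look at the same interval. The labels give no treatment for any group. The sources used here do not give the strain, the mutated gene, the body site, how many animals each library stands for, or any pooling. With 1 library per age, a difference within the wildtype has no replicate check and carries no p-value.

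A mouse is born with a sealed epidermis and with follicles that are still being built, and the first coat grows during the following weeks. A growing follicle makes a shaft of hard keratins set in a matrix of keratin-associated proteins, inside a sheath of softer keratins, from dividing matrix cells around a dermal papilla. Over the same weeks sebaceous glands form, the dermis and the muscle sheet under it lose their fetal form, and immune cells settle in the epidermis.

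The defining markers of skin were present in both libraries. The basal keratin Krt5 was at 573 FPKM at day 0 and 1308 at day 16, Krt14 at 399 and 1103, the suprabasal keratin Krt10 at 2038 and 508, the collagen Col1a2 at 1621 and 1215, Col6a1 at 264 and 69.6, and the endothelial marker Pecam1 at 30.6 and 16.4. The spacing of low values put the depth near 35481339 fragments at day 0 and 32359366 at day 16, so 3 fragments on a 1 kb transcript equal 0.0846 and 0.0927 FPKM. These limits cover counting error only. Keratins and keratin-associated proteins made up 1.53% of the protein-coding FPKM at day 0 and 10.5% at day 16. The sexes of the libraries were not alike: at day 0 Xist (51.3 FPKM) stood beside the Y-linked Ddx3y (16.3), and at day 16 Xist was at 0.0158 and Ddx3y at 20.1. In Hairloss skin Xist was at 76.1 and 0.00961 FPKM at these ages and Ddx3y at a listed 0 and 20.4. Sex-linked RNA thus differed between the day 0 and day 16 libraries of both genotypes. It did not follow a steady course with age, since at day 28 Hairloss skin had Xist at 50.2 and Ddx3y at a listed 0. The part of sex in the differences was not tested. In bulk skin, fewer cells of a type and less RNA per cell cannot be told apart, and this holds for all that follows.

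A group of 5 genes was not compared, since an exact 0 in a gene at 5 FPKM or more in every library where it is above 0 can be a failed estimate. Rptn, Hrnr, Sprr2d and Tchh were listed at 0 in wildtype skin at day 16, and Krtap6-3 was listed at 0 at day 0. Of the 13660 genes left, 1545 (11.3%) were at least 2-fold higher at day 16 and 1209 (8.85%) at least 2-fold lower on the log2(FPKM + 1) scale, which is the scale of every difference below and which understates the change of low genes. Here and in every list below, a gene under 1 FPKM at 1 age enters only where the other age reaches that limit. Counts past 2-fold therefore describe and test nothing. The median difference over all genes was -0.01. The split of calls rests on the scaling. With both libraries set to equal totals of protein-coding genes without keratins and keratin-associated proteins, the median over all genes moved to -0.22, higher calls numbered 1221 and lower calls 1784, and the share of calls that were higher went from 56.1% to 40.6%. By contrast, the newborn libraries of the 2 genotypes differed past the same limit at 128 of 13229 genes (0.968%).

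**Figure D1:**
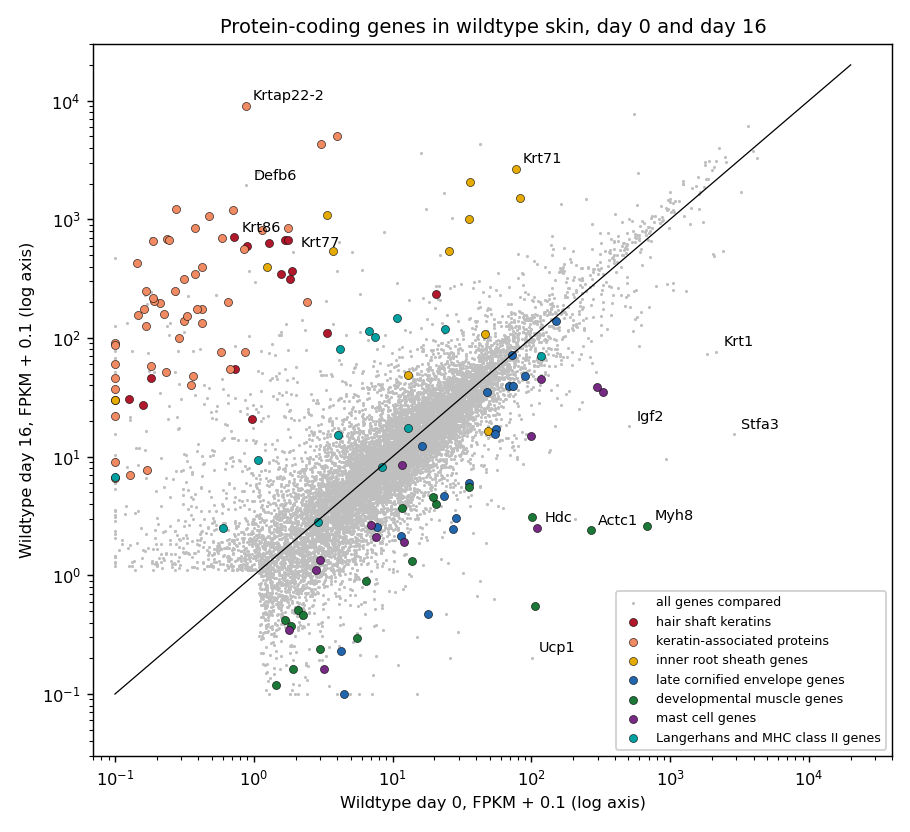
FPKM of each gene compared in wildtype skin at day 0 (horizontal) and day 16 (vertical), with 0.1 added and both axes logarithmic; each point is a gene, coloured points are 7 gene lists and the line marks equal values. Keratin-associated proteins and hair keratins lie at the upper left, up to Krtap22-2 at 0.778 and 9075 FPKM, and developmental muscle genes lie at the lower right, down to Myh8 at 684 and 2.53.

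Genes of the hair shaft were far higher at day 16. All 15 hair keratins compared were higher at day 16, with a median difference of 6.84, and so were all 53 keratin-associated proteins, with a median of 7.10. Of the 57 genes of that family that the tables hold, 53 were compared, and a gene near 0 at birth enters only where day 16 is high, so these counts describe and test nothing. Krtap22-2, a small glycine- and tyrosine-rich protein of the shaft, went from 0.778 to 9075 FPKM, which was the highest value of any gene compared at day 16. Krtap8-1 stood at 3.90 and 5004 FPKM, Krtap7-1 at 2.97 and 4293, and Krtap15 at 0.175 and 1222. The summed FPKM of the family was 22.2 at day 0 and 32947 at day 16. In all, 9 members were listed at 0 at day 0, among them Krtap19-2 (87.5 FPKM at day 16) and Krtap19-4 (90.6); over the 44 members above 0 at both ages the median difference was 7.52. Many of these genes are near-identical copies, so how reads were split among them is uncertain.

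Most hard keratins of the cortex and cuticle were low in newborn skin, the highest being Krt35, at 20.5 FPKM at day 0 and 234 at day 16. Krt86 was at 0.625 FPKM at day 0 and 710 at day 16, Krt34 at 0.797 and 594, Krt81 at 1.18 and 636, Krt33a at 1.58 and 663, and Krt83 at 1.66 and 672. The list's median level was 1.18 FPKM at day 0 and 313 at day 16. The smallest difference in the list was 3.45 and the largest 8.77, so each member lay well higher at day 16.

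The promoters of these genes are shown because many carry a TATA box at the usual distance from the start. The sequences are from RefSeq (GRCm38.p6). Each runs 5′ to 3′ on the gene's strand through the 120 bases that end just before the annotated start, with TATAAA in capitals.
Krtap22-2 (chr16:89010760-89010879, minus strand): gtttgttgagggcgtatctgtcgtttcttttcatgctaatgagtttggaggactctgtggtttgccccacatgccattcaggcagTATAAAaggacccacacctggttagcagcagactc
Krtap8-1 (chr16:89487953-89488072, minus strand): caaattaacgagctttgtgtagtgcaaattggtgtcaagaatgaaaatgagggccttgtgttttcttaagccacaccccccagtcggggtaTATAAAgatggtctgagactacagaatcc
Krt34 (chr11:100041555-100041674, minus strand): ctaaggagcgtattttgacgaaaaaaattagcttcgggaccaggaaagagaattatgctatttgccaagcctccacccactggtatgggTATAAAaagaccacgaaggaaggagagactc
Prr9 (chr3:92123948-92124067, minus strand): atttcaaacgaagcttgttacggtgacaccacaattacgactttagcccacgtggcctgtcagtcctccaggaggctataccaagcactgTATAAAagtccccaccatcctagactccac
Myh3 (chr11:67078180-67078299, plus strand): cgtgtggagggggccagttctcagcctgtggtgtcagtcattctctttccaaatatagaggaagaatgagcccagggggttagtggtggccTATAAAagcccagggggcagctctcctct
Myh8 (chr11:67277004-67277123, plus strand): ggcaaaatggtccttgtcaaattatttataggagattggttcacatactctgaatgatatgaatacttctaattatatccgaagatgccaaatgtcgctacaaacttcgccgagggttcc
The first base of TATAAA lies 35 bases before the start in Krtap22-2, 29 in Krtap8-1, 31 in Krt34, 30 in Prr9, a proline-rich gene of the hair matrix, and 29 in Myh3, the embryonic myosin heavy chain, which was lower at day 16. The perinatal myosin Myh8 is shown because it had the largest drop and its 120 bases hold no TATAAA.

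The motif TATAAA was searched on the gene's strand, wholly within the window from 45 to 16 bases before the start, in the 10605 compared genes with a RefSeq promoter. It was present in 225 of them (2.12%). It was present in 30 of 47 keratin-associated protein promoters (63.8%), in 4 of 9 hair keratin promoters (44.4%) and in 6 of 11 of inner root sheath genes (54.5%). Among all genes at least 2-fold higher at day 16 the share was 8.85%, among those at least 2-fold lower 3.58%, and among those within 2-fold 1.06%. The 8.85% is 103 of 1164 promoters. The 103 include the 30 of keratin-associated proteins, many of them near-identical copies, the 4 of hair keratins and most of those of the inner root sheath. A core bound by LEF and TCF factors was searched on both strands of the 250 bases before the start, written CTTTGNN with each N an A or a T; the form that ends in T and A can share those bases with TATAAA. They were present in 10.4% of all promoters searched, in 34.0% of keratin-associated protein promoters and in 5 of 9 hair keratin promoters (55.6%). In inner root sheath genes they were present in 1 of 11 (9.09%). The share was 13.5% among all genes at least 2-fold higher at day 16 and 10.2% among those at least 2-fold lower. A match describes letters in a window and shows no binding.

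The inner root sheath, which moulds the growing shaft, was already expressed at birth. Of 12 genes compared 11 were higher at day 16 and 1, the transcription factor Trps1, was lower (48.8 and 16.4 FPKM). The sheath keratin Krt71 went from 77.3 to 2666 FPKM, Krt27 from 36.2 to 2054, Krt72 from 3.29 to 1092 and Krt26 from 3.60 to 540. Tchhl1, a trichohyalin-like gene, was at 1.15 and 394 FPKM. The median level of the list was 30.4 FPKM in newborn skin, against 1.18 for the hair keratins.

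Among regulators and markers of the hair matrix, 20 of 28 were higher and 2 lower (median difference 2.63). Prr9 was at 15.9 and 3654 FPKM, the orphan receptor Gprc5d at 0.826 and 365, the thyroid hormone-binding protein Crym at 4.98 and 527, and the cuticle calcium-binding protein S100a3 at 23.5 and 1655. The 2 that were lower are secreted signals: Shh went from 4.45 to 1.33 FPKM and Wnt10b from 12.7 to 5.23. Lef1, which transduces Wnt signals in the matrix, was at 17.3 and 13.9 FPKM and Msi2, an RNA-binding protein, at 40.3 and 25.6, both within 2-fold.

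**Figure D2:**
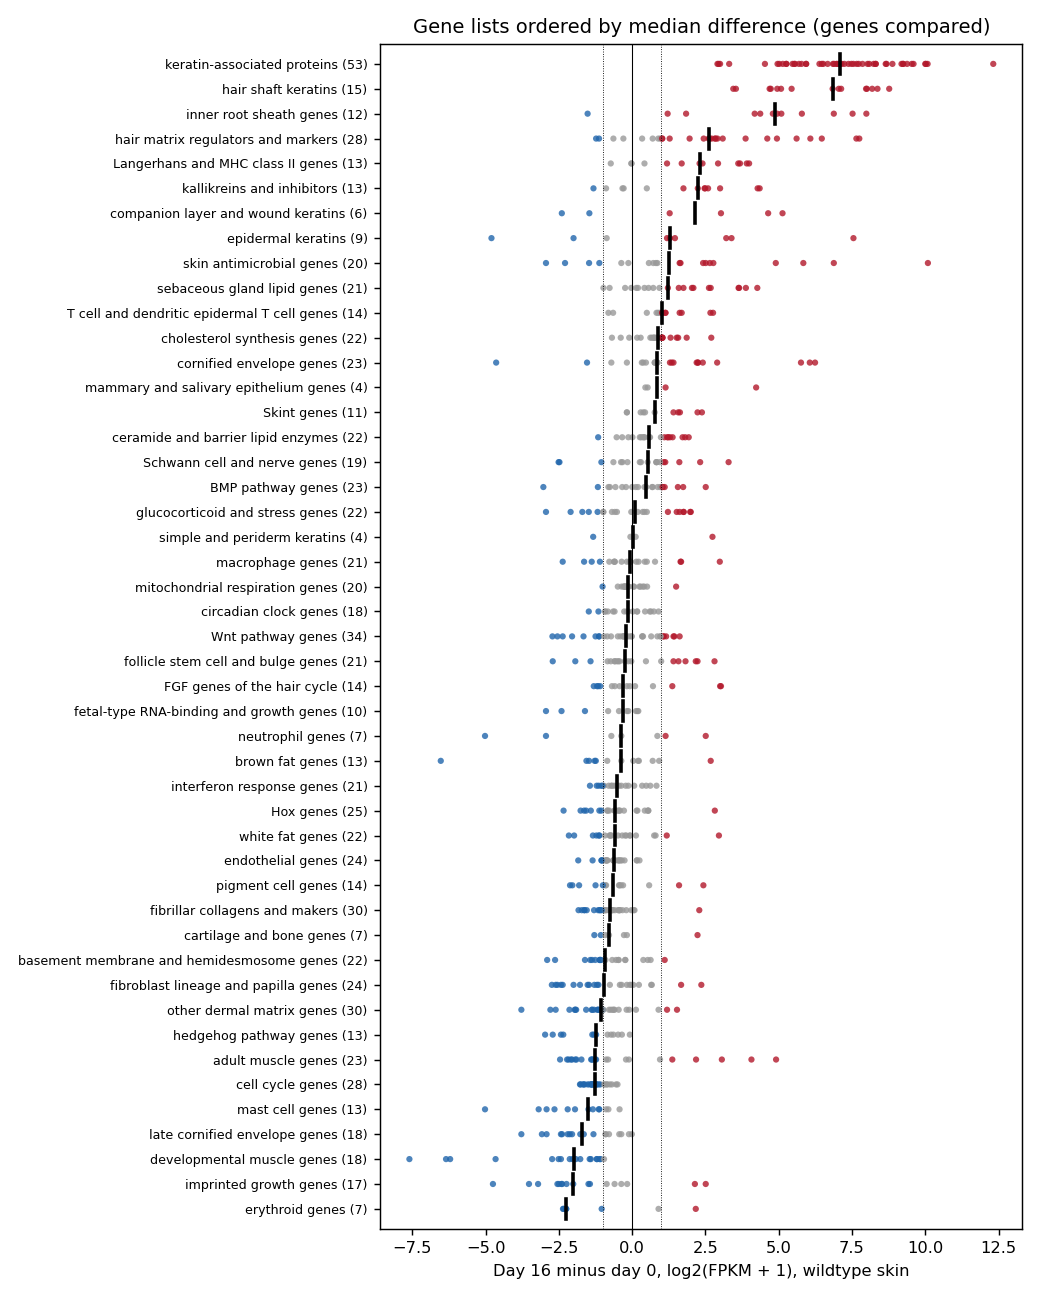
Difference between day 16 and day 0 in wildtype skin on the log2(FPKM + 1) scale for each gene compared of 47 lists, with the number of genes in brackets; black bars are list medians, dotted lines mark 2-fold, red points are higher and blue points lower past it. Medians run from 7.10 for keratin-associated proteins to -2.25 for erythroid genes.

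Different keratins led in the epidermis at the 2 ages. Krt1, the partner of Krt10 above the basal layer, went from 2155 to 76.4 FPKM, a ratio of 28.2 between day 0 and day 16, and Krt10 from 2038 to 508. Krt77, also a suprabasal type II keratin, was at 1.83 FPKM at day 0 and 530 at day 16. Krt80 was at 18.2 and 200, and Krt23 at 21.8 and 209. In all 6 of 9 epidermal keratins were higher and 2 lower, while their summed level was 5398 FPKM at day 0 and 4365 at day 16. Of 6 keratins of the companion layer and of wounded epidermis 4 were higher and 2 lower. Krt6a was at 5.77 and 235 FPKM, Krt75, which marks the companion layer, at 10.7 and 292, and Krt17 at 163 and 1337. Krt6b went the other way, from 5.48 to 0.229, as did Krt16, from 48.2 to 16.9. Among keratins of simple epithelia Krt18 was higher (0.754 and 10.7) and Krt7 lower (3.30 and 0.708), and Krt8 and Krt19 stayed near 1 FPKM at both ages.

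Precursors of the cornified envelope, the cross-linked shell of dead epidermal cells, moved both ways. Filaggrin (Flg), which bundles keratin, was at 1847 FPKM at day 0 and 73.2 at day 16. Small proline-rich genes were not alike: Sprr1a was at 17.3 and 1220 FPKM and Sprr4 at 3.90 and 370, while Sprr2a1 was lower (2.41 and 0.228) and Sprr1b within 2-fold (20.1 and 17.7). Cornulin (Crnn) was at 5.88 and 371, and at 2.87 and 240 in wildtype skin at days 19 and 28. Of 23 envelope genes 11 were higher and 2 lower, whereas of 18 late cornified envelope genes 11 were lower and 0 higher (median -1.71). Lce3c stood at 18.0 and 0.375 FPKM, Lce1g at 27.4 and 2.35, and Lce1e at 28.8 and 2.94; Lce1m, at 151 and 139, was within 2-fold. Lce genes share sequence, and how reads were divided among them is uncertain.

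Protease inhibitors of the stefin family were far lower at day 16. Stfa3 was at 2872 FPKM in newborn skin and 15.3 at day 16, a ratio of 188, BC100530 at 938 and 9.54, and Stfa1 at 208 and 2.88. These are near-identical copies too. The inhibitor Serpinb3c went from 14.8 FPKM to a listed 0. Cst6, a cystatin of the upper follicle and epidermis, was higher instead, at 42.4 and 4280 FPKM. Kallikreins, the serine proteases that shed corneocytes, and their partners were higher in 8 of 13 and lower in 1. Klk6 was at 1.21 and 44.1 FPKM, Klk10 at 4.51 and 106, and Klk7 at 57.7 and 353, while Klk5 (44.8 and 63.6) and Klk8 (25.8 and 20.2) were within 2-fold.

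Genes for barrier lipids and sebum were mostly higher or within 2-fold. Of 22 enzymes of ceramide and barrier lipid synthesis 8 were higher and 1 lower, among them the very long chain elongase Elovl4 (59.6 and 230 FPKM) and the fatty acid transporter Slc27a4 (10.5 and 39.2). Of 21 sebaceous lipid genes 11 were higher and 0 lower. Scd3, a desaturase of the sebaceous gland, was at 1.38 and 44.7 FPKM, the wax synthases Awat2 at 0.701 and 24.0 and Awat1 at 1.75 and 33.5, and the fatty acid hydroxylase Fa2h at 0.976 and 23.5. Cholesterol synthesis was higher in 10 of 22 genes and lower in 0, with a median of 0.87. Msmo1, which removes methyl groups from sterols, was at 15.2 and 57.9 FPKM, Fdps at 24.4 and 74.4, and Hmgcs1, within 2-fold, at 47.8 and 84.9. The lipid carrier Apoe went from 552 to 7716 FPKM.

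Skin defence genes included a difference the size of those in the hair shaft. Defb6, a beta-defensin, was at 0.782 FPKM at day 0 and 1940 at day 16, a difference of 10.09, beside 10.08 for Krtap7-1. The hepcidin Hamp2 was at 0.150 and 134 FPKM, S100a7a at 0.828 and 104, and Retnla at a listed 0 and 28.8. In total 10 of 20 antimicrobial genes were higher and 4 lower; the cathelicidin Camp went from 7.53 to 0.110 FPKM.

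Antigen presentation was higher at day 16. Of 13 genes of Langerhans cells and MHC class II, 9 were higher (median difference 2.30) and 0 lower. The class II chains H2-Eb1 (4.11 and 80.0 FPKM), H2-Aa (6.67 and 114) and H2-Ab1 (7.38 and 102) and the invariant chain Cd74 (10.7 and 148) differed by 3.62 to 3.99. Langerin (Cd207), which marks Langerhans cells, was listed at 0 at day 0 and was at 6.64 FPKM at day 16. Of 14 T cell genes 8 were higher and 0 lower, led by Cd3g (0.602 and 9.87) and Cd7 (0.163 and 6.41). The tables hold 24 protein-coding genes of that list, and the median of the 14 was 0.742 FPKM at day 0. Members near 0 at birth enter only where day 16 is high, so these counts test nothing. Skint genes, which support the T cells of mouse epidermis, were higher in 5 of 11: Skint5 was at 2.54 and 15.6 FPKM and Skint11 at 0.211 and 5.29, while Skint1 was at 24.6 and 21.5.

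Mast cell genes were lower. Of 13 compared, 10 were lower and 0 higher (median -1.49), and they had a summed level of 1001 FPKM at day 0 and 154 at day 16. Hdc, which makes histamine, was at 110 and 2.43 FPKM, the carboxypeptidase Cpa3 at 330 and 35.2, the chymase Cma1 at 297 and 38.4, and the tryptase Tpsb2 at 99.0 and 14.9; the receptor Kit, shared with pigment cells, was at 11.7 and 8.41. Macrophage genes were mostly within 2-fold, 14 of 21, with 3 higher and 4 lower (median -0.09). Over all genes compared, 11.3% were higher and 8.85% lower. Lyz2 was at 25.7 and 82.8 FPKM, Pf4 at 179 and 33.9, and Csf1r, the receptor that defines the lineage, at 58.4 and 56.5. In Hairloss skin 14 of the 21 were higher and 0 lower. Of 7 neutrophil genes 2 were higher, S100a8 (22.7 and 134) and Mmp9 (0.188 and 1.62), and 2 lower, Camp and Hdc. Interferon response genes were lower in 5 of 21 and higher in 0, with Ifit2 at 6.53 and 1.78 FPKM. Of 12 B cell and plasma cell genes on the list, the 7 protein-coding ones in the tables did not reach 1 FPKM at either age, and the other 5 were not compared.

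Matrix genes of the dermis were lower or within 2-fold, with few exceptions. Of 30 genes for other dermal matrix 17 were lower and 2 higher (median -1.06). Fbn2, the fibrillin of fetal microfibrils, was at 62.2 and 3.59 FPKM, Col6a3 at 595 and 85.1, Vcan at 80.5 and 12.3, and Col6a2 at 275 and 61.6, but Sparc was at 1061 and 1160. Of 30 fibrillar collagens and their processing enzymes 1 was higher and 10 lower. The crosslinking oxidase Lox was at 82.0 and 22.4 FPKM and Col5a1 at 221 and 66.4, with Col3a1 (3238 and 1706) and Col1a2 (1621 and 1215) within 2-fold; Col3a1 was listed at 0 in 3 of the other libraries. Basement membrane genes were lower in 10 of 22 and higher in 1: Frem1 was at 23.2 and 2.24 FPKM, and Col7a1, the anchoring fibril, at 75.3 and 11.3. Fibroblast and papilla genes were lower in 12 of 24 and higher in 2, with Twist2 at 36.6 and 4.63 and the Wnt agonist Rspo3 at 7.33 and 0.418.

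Hedgehog signalling stood out among the pathways that build follicles, with 0 of 13 genes higher and 7 lower (median -1.23). The effector and target Gli1 was at 34.9 and 4.49 FPKM, the decoy Hhip at 9.99 and 1.04, and the receptor Ptch1 at 77.4 and 14.3. The transducer Smo was at 28.1 and 26.5. Of 34 Wnt and ectodysplasin genes 6 were higher and 8 lower, the latter led by secreted inhibitors, Sfrp2 (42.3 and 5.58), Wif1 (36.1 and 6.16) and Dkk1 (4.87 and a listed 0), and by the ectodysplasin receptor Edar (4.33 and 0.286). Of 23 BMP genes 6 were higher and 2 lower: the pseudoreceptor Bambi was at 1.74 and 14.6 and the inhibitory Smad6 at 1.80 and 8.34. Of 14 FGF genes 3 were higher and 4 lower: Fgf5, known for ending hair growth, was at 0.233 and 9.05 FPKM and Fgf22 at 2.70 and 28.5, while the receptor Fgfr1 was at 74.7 and 29.6. Of 21 genes of follicle stem cells 6 were higher, among them Plet1 (7.96 and 61.9), Sox9 (6.55 and 34.4) and Foxc1 (2.58 and 15.2). The 3 that were lower were Gli1, Postn (573 and 149) and Lgr6, and Cd34 (71.9 and 65.6) was within 2-fold. Hox genes were lower in 7 of 25, with Hoxa7 at 7.29 and 0.635; the 1 that was higher was Hoxc13, the regulator of hair keratins, at 4.80 and 40.0.

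Imprinted growth genes and cell cycle genes were mostly lower. Of 17 imprinted growth genes 11 were lower and 2 higher, with a median of -2.01. Igf2, the fetal growth factor, was at 509 FPKM at day 0 and 17.9 at day 16, the cell cycle inhibitor Cdkn1c at 134 and 10.8, Plagl1 at 87.4 and 8.58, and Peg3 at 164 and 27.2. The 2 that were higher were Nnat (7.47 and 47.4) and Phlda2 (0.565 and 5.91). Of 10 fetal-type RNA-binding and growth genes 3 were lower and 0 higher (median -0.32). The RNA-binding proteins Igf2bp2 (13.5 and 0.889) and Igf2bp1 (5.70 and 0.260) and the chromatin protein Hmga2 (2.28 and 0.0743) were lower, whereas Hmga1 was at 38.0 and 44.2. Of 28 cell cycle genes 20 were lower and 0 higher, in a narrow range of differences from -1.78 to -0.50, with Birc5 at 26.3 and 6.93 FPKM and Ccna2 at 26.8 and 7.22. Developmental muscle genes moved with these groups (1286 and 29.5 FPKM summed), and their part in the result was not tested.

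Muscle RNA differed in both amount and kind. Of 18 developmental muscle genes 17 were lower and 0 higher; their summed level was 1286 FPKM at day 0 and 29.5 at day 16. The perinatal myosin Myh8 went from 684 to 2.53 FPKM, a ratio of 270, cardiac actin Actc1, the fetal actin of skeletal muscle, from 268 to 2.30, the embryonic myosin Myh3 from 106 to 0.451, and the light chain Myl4 from 101 to 3.03. Of 23 adult muscle genes 5 were higher instead. Among these the adult fast myosin Myh4 was at 1.67 and 79.2 FPKM, the calcium buffer Pvalb at 5.69 and 112, and myoglobin (Mb) at 2.74 and 30.1. The other adult muscle genes were mostly lower, 13 of 23, as with Eno3 (290 and 51.8), and the summed level of the adult list was 8889 and 2539 FPKM.

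Markers of the other tissues in a skin sample moved both ways. Of 13 brown fat genes 5 were lower and 1 higher. Ucp1, the heat-producing protein of brown fat, was at 101 FPKM at day 0 and 0.103 at day 16, but the newborn Hairloss library had 3.25, so the 2 newborn samples were not alike in it. White fat genes were lower in 6 of 22 and higher in 2, with leptin (Lep) at 0.882 and 13.6 FPKM and Fabp4 at 694 and 663. Of 7 erythroid genes 5 were lower and 1 higher (median -2.25), with the haemoglobin chains Hba-a1 at 617 and 129 and Hbb-bs at 1298 and 251. Of 24 endothelial genes 5 were lower, with the lymphatic receptor Lyve1 at 28.4 and 7.21, and 0 higher. Of 19 Schwann cell and nerve genes 5 were higher and 3 lower: the myelin gene Mbp was at 7.06 and 39.2, while Gap43 of growing axons was at 12.4 and 1.41 and Ncam1 at 35.7 and 5.45. Of 14 pigment cell genes 4 were lower, among them Dct at 58.3 and 13.5, Pmel at 38.0 and 7.99 and Tyr at 6.57 and 1.16, and 2 were higher, Gpnmb at 6.91 and 41.6 and the regulator Mitf at 9.14 and 29.8. Casein genes, which mark mammary tissue, did not reach 1 FPKM. Of the 4 genes of the mammary and salivary list that were compared, 2 were higher and 0 lower. Elf5 was at 0.555 and 28.2 FPKM and Amy1 at 1.51 and 4.52, with Esr1 (2.79 and 4.17) and Prlr (3.56 and 5.59) within 2-fold. At days 19 and 28 Elf5 was at 1.17 and 25.3 FPKM in wildtype skin, beside 2.79 and 504 for the hair keratin Krt86. Which tissue of the sample holds Elf5 was not tested. Housekeeping lists moved little: of 20 mitochondrial respiration genes 1 was higher and 1 lower, and of 18 clock genes 0 were higher and 2 lower, Per1 (31.2 and 10.5) and Per2 (4.93 and 1.67). Early response and stress genes moved both ways, with Fosb at 11.8 and 0.671, Fos at 36.5 and 7.73, Junb at 22.1 and 90.2 and Sgk1 at 21.0 and 87.3. The part of these genes in other differences was not tested.

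**Figure D3:**
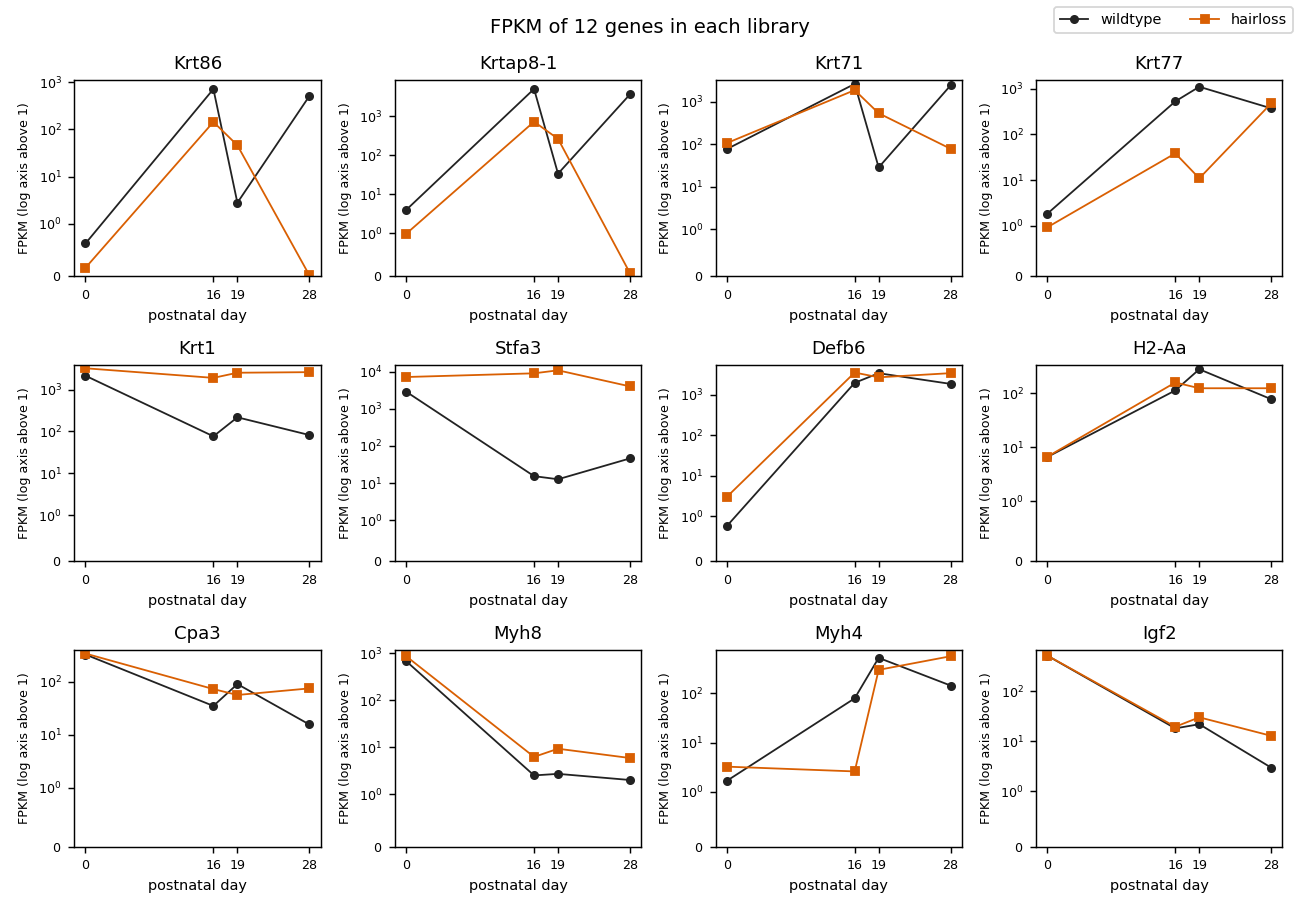
FPKM of 12 genes in each of the 8 libraries, 1 point per library, against postnatal day; black circles are wildtype, orange squares Hairloss, and the vertical axis is logarithmic above 1 FPKM and linear below. Krt86 and Krtap8-1 peak in wildtype at day 16 (710 and 5004 FPKM) and again at day 28 (504 and 3634), while Myh8 and Igf2 are highest at day 0 in both genotypes.

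The later wildtype libraries placed these levels in time. Krt86 was at 710 FPKM at day 16, 2.79 at day 19 and 504 at day 28, and Krtap22-2 at 9075, 82.7 and 3914. Defb6 was at 1940, 3351 and 1826, and Cst6 at 4280, 3381 and 1815. Myh8 was at 2.53, 2.73 and 2.02 and Igf2 at 17.9, 21.7 and 2.93. So Krt86 and Krtap22-2 were high at days 16 and 28 and lower at days 0 and 19, whereas Defb6, Cst6, Myh8 and Igf2 were not back at their newborn level at day 28.

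The only test the design allows asks about the step from day 0 to day 16 shared by both genotypes, in a limma fit of all 8 libraries with genotype and age as terms and p-values adjusted by Benjamini and Hochberg over 18657 genes. The spread in this fit is how far the genotypes depart from a shared course over all ages. It therefore holds any real difference between their courses as well as noise. Of 13656 compared genes fitted, 666 (4.88%) rose and 679 (4.97%) fell at an adjusted p under 0.05. Those counts rest on each library of days 0 and 16. Without the wildtype or the Hairloss library of day 0 the calls were 2 rises and 7 falls or 1 and 8, and without the wildtype or the Hairloss library of day 16 they were 5 and 6 in both cases. Without the wildtype or the Hairloss library of day 28 there were 388 and 351 or 366 and 324. A fit of the libraries of days 0 and 16 alone called 0 genes, with 4764 at an unadjusted p under 0.05.

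By this test 15 of 18 developmental muscle genes fell, as did 11 of 17 imprinted growth genes, 5 of 13 hedgehog genes and 8 of 22 basement membrane genes. Of 22 cholesterol synthesis genes 14 rose, as did 9 of 13 genes of Langerhans cells and MHC class II and 5 of 14 T cell genes. The lowest adjusted p of the limma test was 0.00260, for Defb6 (a fitted rise of 9.93 ± 0.40 SE), Myh8 (-7.25 ± 0.28), Myh3 (-6.44 ± 0.24), Myl4 and Arhgap36, a hedgehog pathway activator on the X chromosome at 29.6 FPKM at day 0 and 0.236 at day 16. Cst6 rose by 6.57 ± 0.32 (limma adjusted p = 0.00529). The vacuolar pump subunit Atp6v1c2 (4.51 and 33.7 FPKM), the calcification inhibitor Mgp (16.4 and 87.5) and complement C4b (2.38 and 25.1) also rose in that fit. None of the 15 hair keratins passed, with 2 at an unadjusted p under 0.05, and 1 of 53 keratin-associated proteins did, with 10 unadjusted. Krt86 had a fitted rise of 7.87 with a standard error of 3.16 (limma adjusted p = 0.173). Its steps from day 0 to day 16 were 8.77 in wildtype and 6.96 in Hairloss skin. At days 19 and 28 it was at 2.79 and 504 FPKM in wildtype skin and at 45.8 and 0.0211 in Hairloss skin, and the standard error includes that parting of the genotypes. One of 28 cell cycle genes passed, Cenpf (13.2 and 3.53 FPKM), with 15 falls unadjusted, and 0 of 18 late cornified envelope genes, with 2 falls unadjusted. As background to these unadjusted counts, 4900 of all 13656 compared genes fitted had an unadjusted limma p under 0.05, in either direction.

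The step in Hairloss skin shares no library with the wildtype step. Of the 1545 genes higher in wildtype, 1471 (95.2%) had the same sign there and 891 (57.7%) were also at least 2-fold higher; of the 1209 lower, the counts were 1114 (92.1%) and 683 (56.5%). The share of the same sign over all compared genes was not computed, so the same-sign shares stand without a background. Over all compared genes with a value, 1361 were higher and 1173 lower in Hairloss skin, and the shared calls were 65.5% and 58.2% of those. In its own set of 13700 genes, Hairloss skin had 11.0% higher and 8.74% lower.

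Levels set side by side show where the genotypes lie close and where they lie apart. Igf2 was at 509 and 17.9 FPKM in wildtype and 511 and 19.3 in Hairloss skin, and Cst6 at 42.4 and 4280 and at 44.7 and 4190. Krt86 was at 0.625 and 710 in wildtype and 0.162 and 143 in Hairloss, and Krtap22-2 at 0.778 and 9075 and at 1.34 and 2008. Stfa3 was at 2872 and 15.3 in wildtype against 7111 and 8940 in Hairloss, Krt1 at 2155 and 76.4 against 3249 and 1914, and Flg at 1847 and 73.2 against 1743 and 1139. Myh4 was at 1.67 and 79.2 against 3.25 and 2.60, and Hamp2 at 0.150 and 134 against a listed 0 and 0.278. In all, 28 genes passed 2-fold in opposite directions, 20 of them lower in wildtype and higher in Hairloss. With 1 library for each genotype and age, the difference between the steps was not tested.

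**Figure D4:**
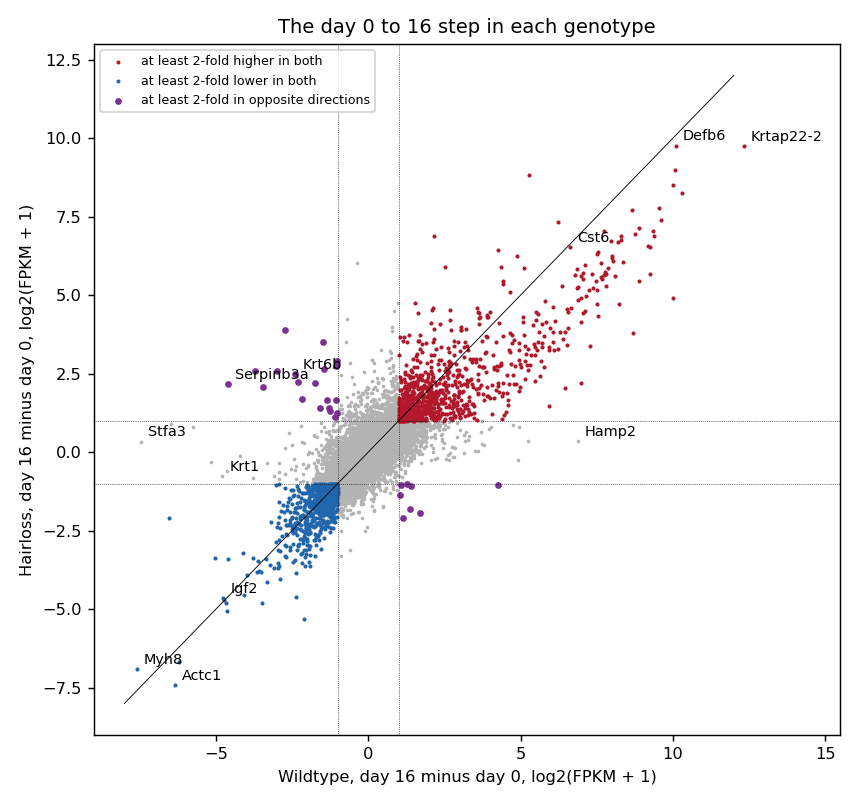
Difference between day 16 and day 0 on the log2(FPKM + 1) scale in wildtype (horizontal) and Hairloss skin (vertical); each point is a gene, the solid line marks equal differences and dotted lines mark 2-fold. Defb6 and Myh8 lie near the line, hair genes such as Krtap22-2 (12.32 and 9.74) lie below it, and Stfa3 (-7.47 and 0.33) and Krt1 (-4.80 and -0.76) lie far above it.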

How the data were processed

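Total RNA of mouse skin was sequenced in 8 libraries. The deposited tables hold 1 value per gene, read here as FPKM from the values, which the authors made with cutadapt and Cuffdiff on mm10, per the submitters' processing notes; the sources used here give no version, aligner, annotation, strand use or scaling between libraries. Symbols and gene types came from GENCODE M21. The deposited FPKM values were compared on log2(FPKM + 1), called past a difference of 1, in protein-coding genes of at least 1 FPKM in either library. Of protein-coding genes 9 were at exactly 0 in 1 to 3 of 8 libraries and at 5 FPKM or more in the others; the 5 with the 0 in a compared wildtype library were left out of the comparison, and all 9 out of the limma fit. limma 3.58.1 (R 4.3.3; trend, robust; 3 residual degrees of freedom) was tested on simulated data. Whether libraries come from separate animals is not stated.

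Members and lists were chosen with earlier results of these data known. Genes named are the 12 largest differences each way (at most 3 of a near-identical family), up to 4 members past 2-fold and 2 within it per list, genes listed at 0, and the 6 lowest adjusted p-values each way. Krt71, Krt16, Trps1, Shh, Wnt10b, Nnat, Phlda2, Apoe, Krt35, Sprr2a1, Sprr1b, Mitf, Postn and Lgr6 were named after their values were seen. Alternatives changed the pseudocount, scaling, filter, fold and libraries. A few genes that the rule names are not reported here.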

Additional observations from a re-analysis of the deposited data

Results flagged for a closer look

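Among genes with steps past 2-fold in opposite directions in the 2 genotypes, the 6 with the largest gap, leaving out genes with only a Gm or RIKEN clone name, are given here; the differences were not tested, with 1 library for each genotype and age. Serpinb3a, a serine and cysteine protease inhibitor, had a step of -4.61 in wildtype skin and 2.16 in Hairloss skin on the log2(FPKM + 1) scale. Stfa2l1 had steps of -3.00 and 2.59, the gasdermin Gsdmc of -3.46 and 2.09, the small proline-rich gene Sprr2a1 of -1.47 and 3.51, and Krt6b of -2.40 and 2.49. The cytochrome oxidase assembly gene Cox20 went the other way, with steps of 4.26 and -1.05. Its values over the 8 libraries ran from 0.178 to 21.5 FPKM. Newborn wildtype and Hairloss levels already lay apart in Krt6b (5.48 and 101 FPKM), Serpinb3a (25.8 and 4.35) and Cox20 (0.178 and 3.13). They were closer in Stfa2l1 (7.01 and 11.2), Gsdmc (10.9 and 8.55) and Sprr2a1 (2.41 and 3.75).

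H19, the noncoding RNA beside Igf2, lies outside the protein-coding comparison. It was at 1998 FPKM at day 0 and 154 at day 16 in wildtype skin, and at 2704 and 171 in Hairloss skin.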

How the results depend on the processing

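Medians of 45 of 47 lists kept their sign under 5 alternatives of pseudocount, scaling and the handling of exact zeros; those of simple keratins (-0.11 to 0.05) and stress genes (-0.15 to 0.08) did not. The size rests on the pseudocount: with 5 instead of 1 the median of mast cell genes was -0.83, of hedgehog genes -0.59, of late envelope genes -0.88 and of Langerhans and MHC class II genes 1.22, and with 0.1 that of mast cell genes was -2.38. A pseudocount of 5 gave 968 genes higher and 460 lower, a 4-fold limit 535 and 205, and a pseudocount of 0.1 gave 1895 and 1744. The limma test without a filter on low values called 144 rises and 129 falls, and with only the libraries of days 0 and 16, which leaves 1 residual degree of freedom, 0 and 0. Leaving out 1 library at a time gave 1 to 792 rises and 6 to 744 falls: 2 and 7 without wildtype day 0, 1 and 8 without Hairloss day 0, 5 and 6 without either library of day 16, 388 and 351 without wildtype day 28, and 366 and 324 without Hairloss day 28. The cause was not tested; where an age was left with 1 library, that library was assumed to vary like the others. No paired analysis was possible because each group has 1 library and its number pairs nothing. Depth limits statements on genes near 0.0927 FPKM and below at day 16 and 0.0846 at day 0.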
